A study of Mus musculus with 6 samples.

Results

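The genes described here are 10 genes of Wnt signalling and of pericentral hepatocyte identity, taken by symbol from the 28476 genes of the table: Glul, Oat, Axin2, Lgr5, Rnf43, Znrf3, Tbx3, Rspo3, Wnt2 and Wnt9b. All 10 symbols were found, each with 1 identifier. They were read in whole-liver libraries of C57BL/6 mice, 3 labelled Flox and 3 labelled Nedd4 HepKO (HepKO below). All mice were fasted overnight, and the livers were collected 24 h after 300 mg/kg acetaminophen (APAP) by intraperitoneal injection. Whether each library came from its own mouse is not stated, so a liver below means a library. No uninjected livers were analysed here, and every difference is one between genotypes after the drug. The sources used here do not give the Cre driver behind the HepKO label, or the sex and age of the mice.

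Wnt ligands bind Frizzled and LRP5/6 receptors and keep beta-catenin from being degraded, so that it can enter the nucleus and act with TCF/LEF factors on target genes. In the liver, endothelial cells of and near the central vein supply Wnt2, Wnt9b and Rspo3, and the hepatocytes around that vein keep beta-catenin active. Those pericentral hepatocytes are also the cells in which acetaminophen is mainly converted to its toxic product. The pathway holds its own brakes: the transmembrane ligases RNF43 and ZNRF3 remove Frizzled from the cell surface, R-spondins bound to LGR receptors counter them, and AXIN2, itself a target, helps to degrade beta-catenin.

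Among these genes, Glul was higher and Axin2 lower in HepKO livers, and the other tested genes did not pass the threshold. Both are classical hepatic targets of the pathway. The 250 bases upstream of their RefSeq starts are shown because these were the genes that changed, and in opposite directions. The windows are from GRCm38.p6, both on the plus strand, at chr1:153899679-153899928 for Glul and chr11:108920099-108920348 for Axin2. Capitals mark CCAAT read on either strand.
Glul: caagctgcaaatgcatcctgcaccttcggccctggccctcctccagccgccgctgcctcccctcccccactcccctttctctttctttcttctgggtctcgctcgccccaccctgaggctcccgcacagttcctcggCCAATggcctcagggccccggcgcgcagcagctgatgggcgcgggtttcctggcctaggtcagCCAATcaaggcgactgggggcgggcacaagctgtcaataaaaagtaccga
Axin2: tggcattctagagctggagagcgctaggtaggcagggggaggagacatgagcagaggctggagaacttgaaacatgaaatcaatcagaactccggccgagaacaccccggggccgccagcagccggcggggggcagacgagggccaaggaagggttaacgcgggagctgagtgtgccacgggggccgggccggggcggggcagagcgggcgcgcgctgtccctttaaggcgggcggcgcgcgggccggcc
The Glul window held 2 CCAAT matches and the Axin2 window 0, so the Axin2 line has no capitals. Oat also held 2, Wnt2 and Wnt9b 1 each and Rnf43 0, so 4 of 7 windows held CCAAT. TCF/LEF words (CTTTG followed by AA, AT, TA or TT, both strands) had 0 matches in either window. They also had 0 matches in the other 5 windows in the table, for Oat, Rnf43, Wnt2 and Wnt9b, Rnf43 having 2. Of all 32851 promoter windows of this length, 14.8% held such a word and 33.8% held CCAAT. The latter was added to the search after the sequences were seen. No match says only that these letters are not in this window.

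The 6 libraries summed to between 456176 and 496303 FPKM (fragments per kilobase of transcript, scaled to each library's fragments), with 10402 to 10763 genes at 1 FPKM or more, and their depth is unknown. Nedd4, the targeted ubiquitin ligase gene, had 2.18, 2.59 and 2.23 FPKM in the Flox group and 0.618, 0.666 and 0.565 FPKM in the HepKO group. Hepatocyte markers were abundant in every library, with 40490 to 47150 FPKM summed over 8 genes in Flox and 46200 to 51440 FPKM in the HepKO group. HepKO replicate 1 stood apart in its mitochondrial transcripts, 24.6% of its FPKM against 16.7% to 18.4% in the other libraries. Flox replicate 1 stood apart from the other Flox livers in several genes below. In whole liver, fewer cells of a type and less RNA per cell cannot be told apart. By limma at an adjusted p of 0.05, 2583 of 12712 genes tested passed (20.3%). With HepKO as the numerator, 9.33% of the genes tested were higher and 11.0% lower. The higher share of these calls was 45.9% here and 59.2% after median-ratio rescaling.

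Glul encodes glutamine synthetase, which pericentral hepatocytes use to capture the ammonia that the urea cycle upstream has left. It lies on chromosome 1 (153899944 to 153909723, GRCm38, plus strand). It measured 9.11, 6.68 and 10.2 FPKM in the Flox group and 17.0, 19.2 and 19.2 FPKM in the HepKO group. Every HepKO liver lay above every Flox liver. Group means were 8.68 ± 1.82 and 18.4 ± 1.26 FPKM (SD, n = 3), a 2.13-fold rise. The log2 fold change was 1.02 (SE 0.16, 95% interval 0.65 to 1.40, limma adjusted p = 0.0068), and without any 1 library it stayed between 0.86 and 1.14 with adjusted p of 0.032 or less. A larger fold of means upward was found for 7.35% of the genes tested. The exons of Glul also hold the microRNA gene Mir8114 on the same strand, whose listed 3.73 to 8.81 FPKM in the Flox group and 10.4 to 16.9 FPKM in the HepKO group cannot be told apart from Glul itself. The opposite-strand gene Teddm2, which overlaps Glul exons, was at 0.066 FPKM or less in all 6 libraries.

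**Figure D1:**
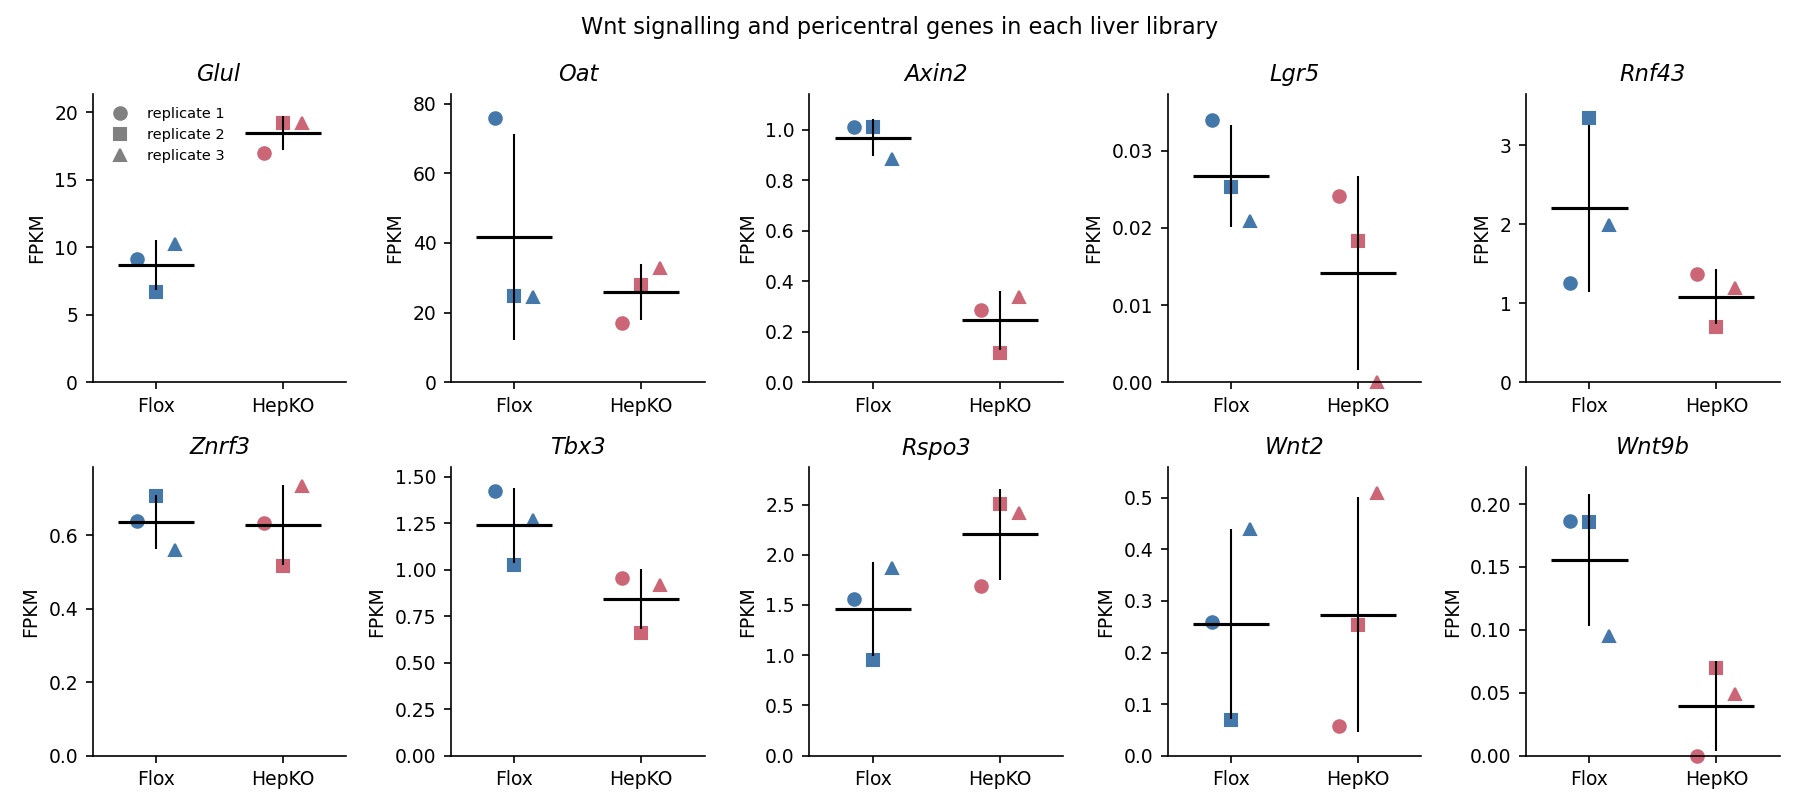
FPKM of each of the 10 genes (vertical axes, from 0, a scale per gene) in the 3 Flox (blue) and 3 HepKO (red) livers; symbols give the replicate, horizontal lines the mean and vertical lines 1 SD. Glul sits at 17.0 to 19.2 FPKM in HepKO against 6.68 to 10.2 FPKM in Flox livers, and Axin2 at 0.114 to 0.337 against 0.884 to 1.01 FPKM.

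Oat encodes ornithine aminotransferase, a mitochondrial enzyme of ornithine breakdown that shares the pericentral position of Glul in healthy liver. It lies on chromosome 7 (132557478 to 132576398, minus strand). It measured 75.8, 24.8 and 24.5 FPKM in the Flox group and 17.1, 27.9 and 32.7 FPKM in the HepKO group. Flox replicate 1 held about 3.09 times the lowest Flox value, and the remaining 5 libraries overlapped. The log2 fold change of -0.51 did not pass (95% interval -1.61 to 0.60, adjusted p = 0.48). Without Flox replicate 1 it was 0.022 (adjusted p = 0.96), with group means of 24.6 and 25.9 FPKM.

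Axin2 encodes the scaffold of the beta-catenin destruction complex that the pathway itself induces, and its transcript is widely read as a measure of Wnt activity. It lies on chromosome 11 (108920349 to 108950783, plus strand). It measured 1.01, 1.01 and 0.884 FPKM in the Flox group and 0.286, 0.114 and 0.337 FPKM in the HepKO group. The groups did not overlap, and the lowest value was that of HepKO replicate 2. Group means were 0.969 ± 0.074 and 0.246 ± 0.117 FPKM (SD, n = 3), so the mean fell 3.94-fold. A larger fold of means downward was found for 0.944% of the genes tested. That rank uses ratios of means with nothing added, so it rests on the low HepKO values. The log2 fold change was -0.66 (SE 0.11, 95% interval -0.93 to -0.39, adjusted p = 0.0098) and -1.69 when 0.1 instead of 1 FPKM was added before the logarithm (adjusted p = 0.021). Without any 1 library, adjusted p was 0.041 or less. Axin2 passed the filter on low values only through the Flox group, and at a mean of at least 1 FPKM it would not have been tested. The antisense gene Gm11670 overlaps its exons and is not analysed here.

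**Figure D2:**
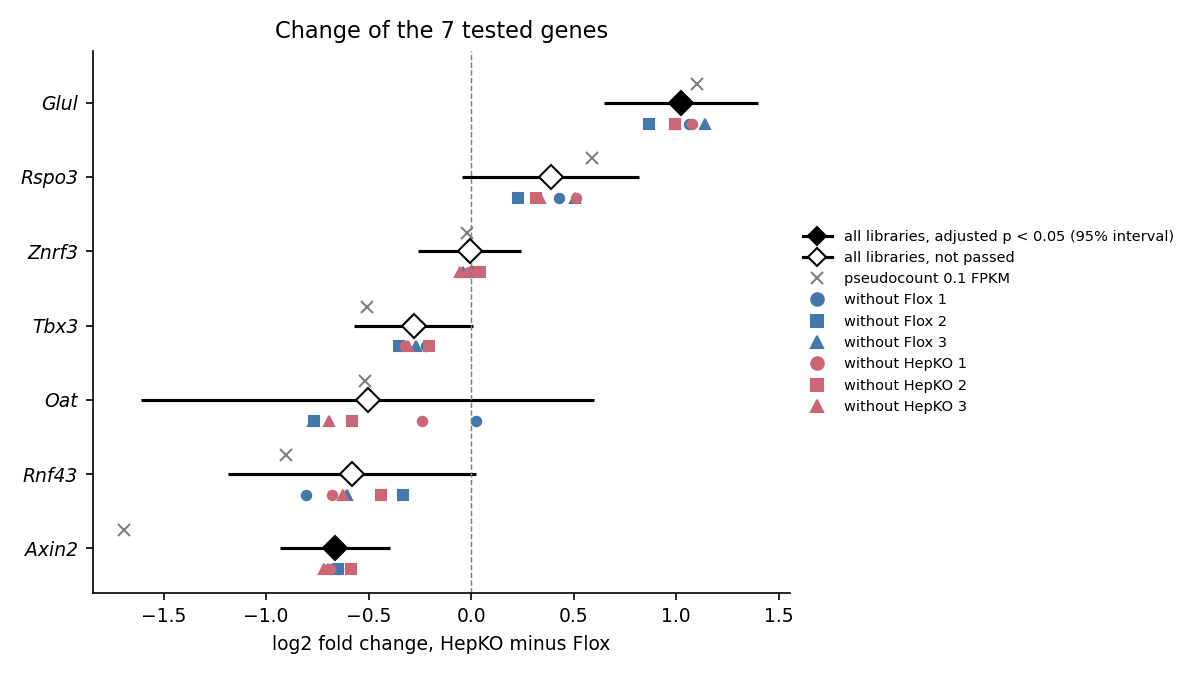
Log2 fold change (HepKO minus Flox, on log2(FPKM + 1)) of the 7 tested genes with 95% limma intervals; filled diamonds passed at adjusted p 0.05. Small coloured symbols give the value without each library in turn and crosses that with 0.1 FPKM added, which moves Axin2 from -0.66 to -1.69. Oat moves from -0.51 to 0.022 without Flox replicate 1.

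In all, 7 of the 10 genes reached the mean of 0.5 FPKM required for the test, 1 was called higher and 1 lower, and 5 did not pass. The share called over all genes tested was 9.33% higher and 11.0% lower, so these counts are near the background. Of the 7, 1 was higher and 2 lower with no overlap between groups. Over all genes tested, 42.4% had no overlap, 17.2% with HepKO higher and 25.2% with HepKO lower, so the count is near the background.

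The surface ligases and the R-spondin receptor gave no call. Rnf43 had 1.26, 3.35 and 1.99 FPKM in the Flox group and 1.36, 0.693 and 1.19 FPKM in the HepKO group. Flox replicate 2 was the highest and HepKO replicate 2 the lowest, and the groups overlapped. Its log2 fold change was -0.58 (95% interval -1.19 to 0.02, adjusted p = 0.15), and it was -0.33 without Flox replicate 2 and -0.81 without Flox replicate 1. Znrf3, its paralogue, had 0.639, 0.707 and 0.559 FPKM in the Flox group and 0.632, 0.515 and 0.734 FPKM in the HepKO group. The log2 fold change of -0.008 (95% interval -0.26 to 0.24, adjusted p = 0.97) was 0.035 after median-ratio rescaling. Both sit on chromosome 11, Rnf43 at 87662722 to 87735539 (plus strand) and Znrf3 at 5276324 to 5444847 (minus strand).

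Lgr5, an R-spondin receptor and itself a Wnt target, was close to the floor of the table (chromosome 10, 115450311 to 115587780, minus strand). It had 0.034, 0.025 and 0.021 FPKM in the Flox group and 0.024, 0.018 and 0 FPKM in the HepKO group, so it was not tested, and HepKO replicate 3 is listed at 0. Permuting the 6 libraries exactly gave a two-sided p of 0.20 on log2(FPKM + 1), where 0.10 is the smallest that 3 against 3 allows. Its relative Lgr4, a receptor of the same class, had 4.20 ± 0.31 FPKM in the Flox group and 4.22 ± 1.28 FPKM in the HepKO group (SD, n = 3; limma adjusted p = 0.96).

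Tbx3, a transcription factor gene that responds to beta-catenin in liver, had 1.43, 1.03 and 1.27 FPKM in the Flox group and 0.957, 0.659 and 0.917 FPKM in the HepKO group (chromosome 5, 119670669 to 119684724, plus strand). Every HepKO value lay below every Flox value, but the log2 fold change of -0.28 (95% interval -0.57 to 0.01) did not pass (adjusted p = 0.15, and 0.15 to 0.35 under the limma alternatives). The antisense gene Tbx3os1, which overlaps its exons, had 1.01, 0.342 and 0.770 FPKM in the Flox group and 0.197, 0.048 and 0.157 FPKM in the HepKO group. The library kit marked strand, but the sources used here do not say whether counting used it, so reads of the pair cannot be told apart.

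None of the central vein ligands gave a call. Rspo3, the R-spondin that stabilises Frizzled around the central vein, had 1.56, 0.953 and 1.87 FPKM in the Flox group and 1.69, 2.50 and 2.42 FPKM in the HepKO group (chromosome 10, 29452416 to 29535867, minus strand). Only HepKO replicate 1 lay within the Flox range. The log2 fold change of 0.39 (95% interval -0.04 to 0.82) did not pass (adjusted p = 0.18), and it ranged from 0.23 without Flox replicate 2 to 0.51 without HepKO replicate 1. The antisense gene Gm48159 overlaps Rspo3 exons and is not analysed here.

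Wnt2 and Wnt9b, the endothelial Wnt ligands, were under the filter and were not tested with limma. Wnt2 (chromosome 6, 17988940 to 18030585, minus strand) had 0.259, 0.070 and 0.439 FPKM in the Flox group and 0.057, 0.254 and 0.510 FPKM in the HepKO group. Its spread within each group was wider than any difference between them (exact two-sided permutation p = 1.0). Wnt9b (chromosome 11, 103727364 to 103749821, minus strand) had 0.186, 0.185 and 0.095 FPKM in the Flox group and 0, 0.070 and 0.049 FPKM in the HepKO group. The groups did not overlap, and the exact two-sided permutation p of 0.10 is the smallest possible here. With no filter, limma gave Wnt9b adjusted p = 0.12 at 1 FPKM and 0.15 at 0.1 FPKM added. At these levels a few fragments set each value.

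FPKM are per length, so the genes can be ordered by level. In Flox livers the order was Oat, Glul, Rnf43, Rspo3, Tbx3, Axin2, Znrf3, Wnt2, Wnt9b and Lgr5. The ranges of Rnf43 and Rspo3, of Rspo3 and Tbx3, and of Wnt2 and Wnt9b overlapped, and the other neighbours were separate. In HepKO livers Axin2 stood below Znrf3 and next to Wnt2, with overlapping ranges for those last 2, and Rspo3 stood above Rnf43 with separate ranges. Oat and Glul, separate in Flox livers at 24.5 to 75.8 against 6.68 to 10.2 FPKM, overlapped in HepKO livers at 17.1 to 32.7 against 17.0 to 19.2 FPKM.

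The rest of the pathway was read from lists of other genes, against the 20.3% of all tested genes that passed. Of 14 other Wnt ligand genes in the table, only Wnt5b reached the filter. It had 1.51 ± 0.35 FPKM in the Flox group and 1.02 ± 0.063 FPKM in the HepKO group (SD, n = 3; limma adjusted p = 0.15). Porcn, whose product lipid-modifies Wnt proteins for secretion, had 1.97 and 2.56 FPKM (adjusted p = 0.15). It was the only tested gene of 3 for R-spondins and Wnt secretion.

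Of 11 tested receptor genes, 2 rose and 0 fell, and the list median log2 fold change was -0.019 against -0.06 over all genes tested. The median of that list turned positive after median-ratio rescaling (0.072). Fzd8, a Frizzled receptor gene, had 1.48, 1.08 and 1.49 FPKM in the Flox group and 4.70, 4.40 and 5.92 FPKM in the HepKO group. That is a 3.71-fold rise with no overlap (log2 fold change 1.35, adjusted p = 0.0017). Fzd5, another Frizzled gene, rose 2.23-fold, from 0.954 to 2.13 FPKM (adjusted p = 0.0073). Both calls held under all 16 alternatives fitted. Ryk, an atypical Wnt receptor and the most abundant of the list, had 6.43 and 6.55 FPKM (adjusted p = 0.91).

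Of 3 tested secreted inhibitors, Frzb, a secreted Frizzled-related protein, rose 2.44-fold from 0.614 FPKM (adjusted p = 0.019). Leaving out Flox replicate 2 (adjusted p = 0.068) or HepKO replicate 2 (0.059) ended that call, as did the replicate block (0.060) and dropping the filter (0.055). Of 14 tested cytoplasmic components, 1 rose and 0 fell: Csnk1e, a casein kinase, rose 1.91-fold to 2.42 FPKM (adjusted p = 0.013, but 0.0501 without Flox replicate 2 0.052 without HepKO replicate 2 and 0.052 with the replicate block). Ctnnb1, which encodes beta-catenin and was the most abundant of that list, had 48.2, 48.8 and 48.9 FPKM in the Flox group and 34.0, 39.4 and 48.7 FPKM in the HepKO group (adjusted p = 0.23). HepKO replicate 3 lay within the narrow Flox range and the other HepKO livers below it. Axin1, the constitutive relative of Axin2, had 10.6 ± 0.64 and 9.16 ± 0.38 FPKM (SD, n = 3; limma adjusted p = 0.20).

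Of 8 tested TCF/LEF factors and cofactors, 1 rose: Tle3, a Groucho-type corepressor, went from 0.410 to 1.48 FPKM, 3.62-fold (adjusted p = 0.0040). It passed the filter on low values only through the HepKO group. Bcl9l, a beta-catenin coactivator and the most abundant of that list, had 4.90 and 5.90 FPKM (adjusted p = 0.41).

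Other targets of the pathway split. Of 5 tested, 2 rose and 1 fell, and the median of 0.23 was 0.074 without Flox replicate 2, 0.10 without Flox replicate 3 and 0.51 without Flox replicate 1. Myc, a growth-promoting transcription factor gene with many other inputs, rose 6.98-fold, from 5.50 ± 2.25 to 38.4 ± 4.70 FPKM (SD, n = 3; limma adjusted p = 0.0012). Cd44, a hyaluronan receptor gene, rose 2.57-fold to 2.20 FPKM (adjusted p = 0.0040). Ccnd1, which encodes cyclin D1, had 2.74, 7.90 and 8.89 FPKM in the Flox group and 1.46, 1.29 and 1.19 FPKM in the HepKO group. It fell 4.95-fold (adjusted p = 0.025), but adjusted p lay between 0.062 and 0.082 without any 1 of Flox replicates 2 and 3 and HepKO replicates 1, 2 and 3, and was 0.067 with no filter and 0.051 with the replicate block. The feedback inhibitor Nkd2, named after its values were seen and under the filter, had 0.034 to 0.054 FPKM in the Flox group and 0.250 to 0.435 FPKM in the HepKO group.

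**Figure D3:**
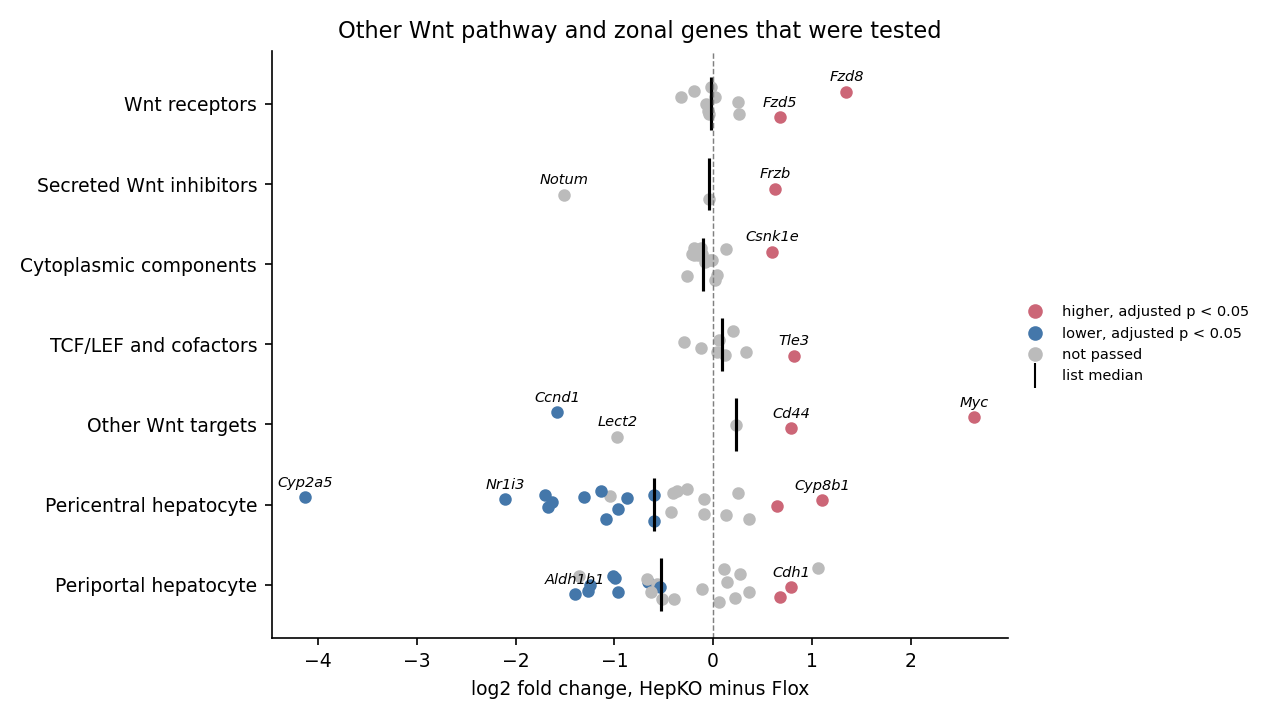
Log2 fold change (HepKO minus Flox, horizontal axis) of each tested gene in 7 lists of other Wnt pathway and zonal genes; red and blue points passed at adjusted p 0.05 and black bars are list medians. The pathway lists have medians from -0.10 to 0.23, with genes far to the right (Myc, Fzd8) and far to the left (Ccnd1, Notum, Lect2), and both zonal lists centre to the left, at -0.60 and -0.52.

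Flox replicate 1 differed from the other Flox livers in several target and zonal genes. Notum, a secreted Wnt-inactivating enzyme induced by the pathway, had 1.32, 7.57 and 10.3 FPKM in the Flox group and 1.08, 1.10 and 1.22 FPKM in the HepKO group. It did not pass (log2 fold change -1.51, adjusted p = 0.099). It did without Flox replicate 1 (-2.21, adjusted p = 0.0014), but adjusted p was 0.17 to 0.24 without any 1 other library. Lect2, a hepatokine gene of the same target class, had 43.6, 78.5 and 104 FPKM in the Flox group and 32.9, 37.9 and 36.4 FPKM in the HepKO group. Its adjusted p was 0.060, and 0.0062 without Flox replicate 1, but 0.11 to 0.16 without any 1 other library. Ccnd1 moved from -1.58 to -2.02 on the log2 scale without Flox replicate 1 (adjusted p = 0.0010). Cldn2, a claudin gene of the same list named after its values were seen, had 28.3, 14.9 and 15.6 FPKM in the Flox group and 22.2, 22.2 and 22.3 FPKM in the HepKO group. It went from 0.23 (adjusted p = 0.52) to 0.51 and passed as higher without Flox replicate 1 (adjusted p = 0.023). Without any 1 other library its adjusted p was 0.61 to 0.87. In Flox replicate 1, Oat and Cldn2 were high and Notum, Ccnd1 and Lect2 were low. That library also stood apart in other genes of the zonal lists, picked with their values known. Against Flox replicates 2 and 3, G6pc had 44.1 against 4.04 and 4.83 FPKM, and Tat 549 against 238 and 265 FPKM. Lhpp had 8.58 against 3.22 and 2.59 FPKM, and Cyp2a5 was low, at 129.5 against 304.9 and 313.1 FPKM. The Glul and Axin2 values of that library lay between those of the other Flox livers.

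**Figure D4:**
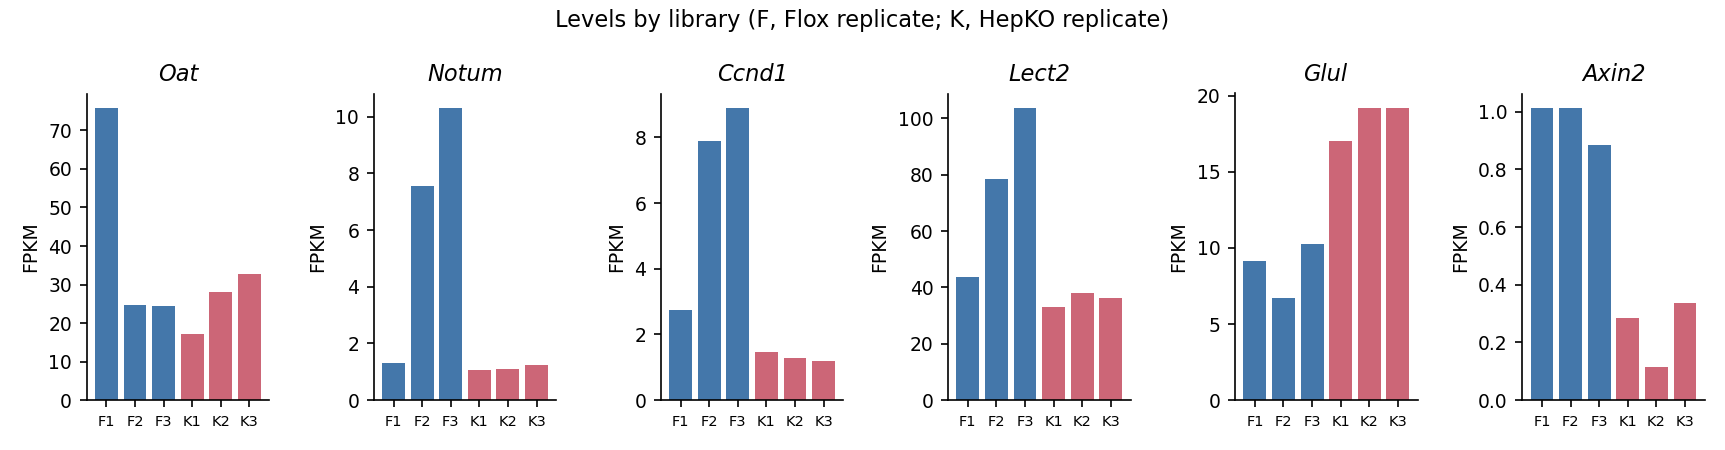
FPKM (vertical axes from 0) of Oat, 3 other target genes, Glul and Axin2 in each library; F1 to F3 are Flox and K1 to K3 HepKO replicates. Flox replicate 1 is high for Oat (75.8 FPKM) and low for Notum (1.32), Ccnd1 (2.74) and Lect2 (43.6), but not apart for Glul or Axin2.

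The rise of Glul was not shared by most other pericentral genes. Of 24 tested genes of a pericentral list that leaves out the 10 genes, 12 fell, 2 rose and 10 did not pass, and the median was -0.60. Over all genes tested, 11.0% were lower and 9.33% higher, and the median was -0.06. Across the settings fitted, 8 to 13 pericentral genes fell and 1 to 2 rose. The pericentral median was -0.49 after median-ratio rescaling. Nr1i3, which encodes the xenobiotic receptor CAR, fell 4.46-fold, from 89.1 ± 1.82 to 20.0 ± 1.44 FPKM (SD, n = 3; limma adjusted p = 0.00026). Aldh1a1, an aldehyde dehydrogenase gene, fell 3.15-fold to 55.1 FPKM (adjusted p = 0.00096), and Cyp2a5, a cytochrome P450 gene with near-identical copies, fell 20.3-fold to 12.3 FPKM (adjusted p = 0.0010). Cyp2e1, the main acetaminophen-activating enzyme and the most abundant, had 915 and 765 FPKM and did not pass (adjusted p = 0.15). Those that rose were Cyp8b1, a bile acid sterol hydroxylase gene, 2.21-fold to 20.5 FPKM (adjusted p = 0.010), and Avpr1a, a vasopressin receptor gene, 1.76-fold to 5.13 FPKM. The Avpr1a call (adjusted p = 0.042) was lost without any 1 library other than Flox replicate 2, with no filter and with the replicate block, with adjusted p up to 0.12. They were chosen after their values were seen, as was the glutamate transporter gene Slc1a2, a close neighbour of Glul in position. Slc1a2 was under the filter, at 0.158, 0.137 and 0.352 FPKM in the Flox group and 0, 0.0096 and 0.026 FPKM in the HepKO group.

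Genes of the opposite, periportal zone also fell more often than they rose. Of 24 tested, 8 fell, 2 rose and 14 did not pass, beside 11.0% lower and 9.33% higher over all genes tested. The median of -0.52 was -0.32 without Flox replicate 1 and -0.41 after median-ratio rescaling. Across the settings fitted, 6 to 9 periportal genes fell and 1 to 4 rose. Aldh1b1, a mitochondrial aldehyde dehydrogenase gene, fell 3.05-fold to 3.74 FPKM (adjusted p = 0.0016), Uroc1, of histidine breakdown, fell 2.47-fold to 27.7 FPKM (adjusted p = 0.0021), and Cps1, of the urea cycle, fell 2.41-fold to 143 FPKM (adjusted p = 0.0023). The genes that rose, named after their values were seen, were Cdh1 (E-cadherin), 1.79-fold to 17.1 FPKM (adjusted p = 0.020), and Ctsc (cathepsin C), 1.63-fold to 28.6 FPKM (adjusted p = 0.0079). Cdh1 no longer passed when Flox replicate 2 was omitted (adjusted p = 0.066), nor without replicate 2 (0.055) or 3 (0.052) of the HepKO group. Arg1, the urea cycle arginase and the most abundant, had 698 and 835 FPKM (adjusted p = 0.29). Without HepKO replicate 1, 10 pericentral and 6 periportal genes fell. The lists were not compared with each other by a test.

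Markers of other cell types are given as counts and sums, beside the 20.3% of all tested genes that passed, and no list was tested. Of 8 neutrophil markers 7 were tested and rose, of which Mmp8, Il1r2 and Cxcr2 passed the filter only through the HepKO group. The 8 summed to 10.7 to 20.4 FPKM in the Flox group and 133 to 159 FPKM in the HepKO group. Markers of 6 genes for endothelium on the central vein side summed to 6.96 to 8.41 FPKM in the Flox group and 22.9 to 34.0 FPKM in the HepKO group. In that list 2 of 3 tested genes rose, Thbd (6.32-fold) and Fabp4 (3.41-fold), neither of which is restricted to central veins. These 2 made up most of the sums, with Flox and HepKO means of 1.59 and 10.1 FPKM (Thbd) and 5.03 and 17.15 FPKM (Fabp4). Selp (0.398 and 0.752) and Kit (0.262 and 0.543) were also higher with no overlap. Cdh13 (0.106 and 0.127) and Lhx6 (0.341 and 0.227) overlapped between groups, and the mean of Lhx6 was lower in the HepKO group. General endothelial markers had 4 higher and 1 lower of 19, with sums of 64.1 to 81.0 and 72.8 to 93.6 FPKM that overlapped. Stellate cell markers had 3 higher and 1 lower of 11, with overlapping sums of 65.6 to 105 and 99.7 to 148 FPKM. Of those higher, Pdgfra passed the filter only through the HepKO group. Macrophage and Kupffer cell markers had 2 higher of 12, with overlapping sums of 108 to 184 and 174 to 217 FPKM. Of those 2, Ccr2 passed the filter only through the HepKO group. Cholangiocyte markers had 2 higher and 1 lower of 5, with sums of 30.4 to 40.2 and 54.3 to 69.6 FPKM. Without HepKO replicate 1 there were 2 higher endothelial, 0 stellate, 1 macrophage and 1 cholangiocyte genes. No marker in these lists was at 0 in all 6 libraries. The part of these cells in the values of Rspo3, Wnt2, Wnt9b, Glul and Axin2 was not tested.

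**Figure D5:**
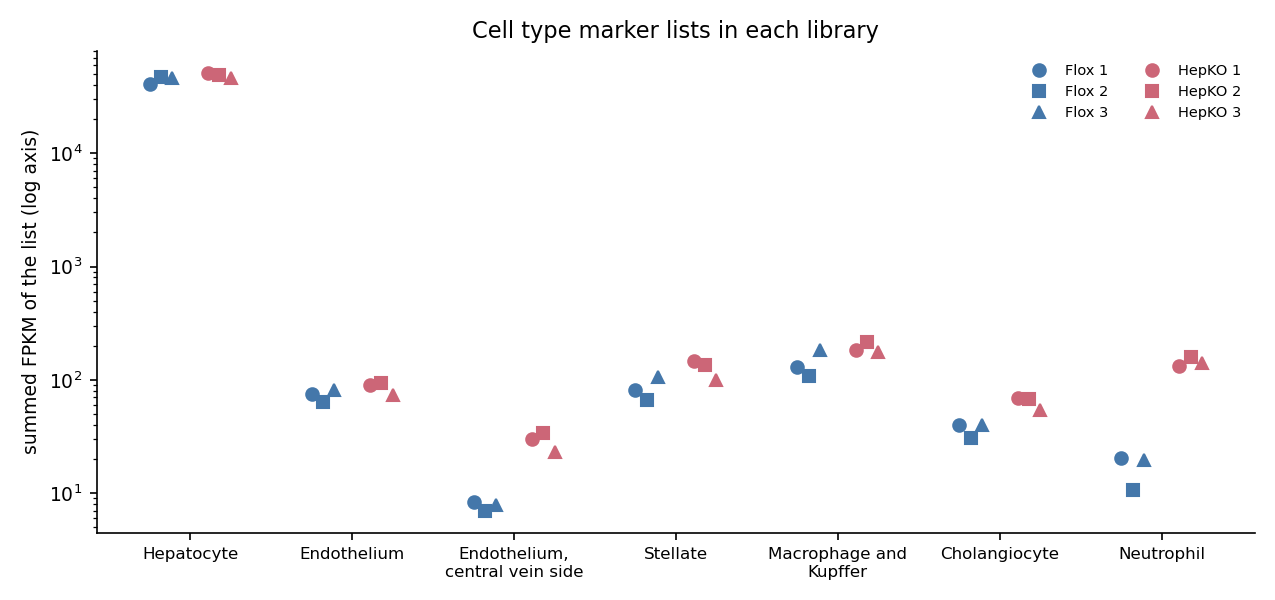
Summed FPKM of 7 cell type marker lists (log axis) in each library, Flox in blue and HepKO in red, symbols by replicate. Neutrophil, cholangiocyte and central vein side endothelial sums do not overlap between groups, and hepatocyte, general endothelial, stellate and macrophage sums do. Thbd and Fabp4 make up most of the central vein side sum.

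For each tested gene, the most similar patterns over the 6 libraries were taken among 9569 genes by Pearson's r of log2(FPKM + 1). As these libraries share the genotype split, r is a description only. Glul was most like Nts (r = 0.994) and Ripk3 (0.993), and Axin2 was most like Cdh2 (0.997) and the pseudogene Ak3l2-ps (0.997). Tbx3 was most like Nup133 (0.995), and Rspo3 most like Pld4 (0.987) and Vapa (0.987). Oat was most like Fh1 (0.987) and the pseudogene Sms-ps (0.986), Rnf43 most like Isy1 (0.985) and Tmem9b (0.984), and Znrf3 most like Pex19 (0.980) and Zcchc7 (0.962).

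The authors' deposited table gives its own test of the same groups. Its q-value was 1.28e-06 for Glul and 0.00057 for Axin2, and it was 0.076 for Rnf43, 0.21 for Rspo3, 0.27 for Oat, 0.37 for Tbx3, 0.93 for Wnt2 and 0.95 for Znrf3. For Lgr5 and Wnt9b the authors' deposited table gives exactly 1. At a threshold of 0.05 it called the same genes as the limma test, Glul higher and Axin2 lower.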

How the data were processed

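RNA was measured by poly(A) RNA sequencing of 6 liver libraries, 3 Flox and 3 Nedd4 HepKO, with groups and replicate numbers from the sample titles. The authors deposited 1 table with the FPKM of each library and their own p-value and q-value, per the file headers. Tools listed without roles in the submitters' processing notes are HISAT2 2.0.4, cutadapt 1.9, edgeR, DESeq2 and StringTie 1.3.4d. The sources used here name no genome build; 25619 of 28396 identifiers shared with GENCODE M21 (GRCm38) have the same coordinates there, as do all 10 genes.

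FPKM are not counts and depth is unknown, so no count test was run. The 12712 genes whose mean over all 6 libraries reached 0.5 FPKM entered limma 3.58.1 (R 4.3.3) on log2(FPKM + 1), genotype as the only term, with the variance trend, two-sided. Adjusted p-values are Benjamini-Hochberg over all genes tested, with a threshold of 0.05. Log2 fold changes on this scale understate changes of low genes; folds are ratios of mean FPKM. The 3 genes under the filter had an exact permutation test (scipy 1.17.1). The code of the limma test was checked on simulated data in which genes were drawn independently. That check covers the code only and not the calls made here. No 2 libraries held identical values. Whether each library came from its own mouse is not stated, so p-values cover only the spread between these libraries, which may be technical.

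The genes and the lists of other genes were chosen with earlier results of these data known. In each pathway or zonal list the most abundant gene and up to 3 with the smallest adjusted p past the threshold were named, and any further gene was picked with its values known. Of the list symbols, Tf was matched as Trf. For Tbx3, 1 of the 2 most similar genes is not reported here. RefSeq promoter sequences (GRCm38.p6) were found for 6 of the 10 genes. Alternatives varied the pseudocount, the filter, the scaling and limma's settings, added the replicate number as a block, or left out a library. Plots were made with matplotlib 3.10.9.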

Additional observations from a re-analysis of the deposited data

How the results depend on the processing

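Glul stayed higher and Axin2 lower, past the threshold, under every alternative that gave them a value (17 for Glul and 16 for Axin2, the authors' deposited q-values among them). Requiring a mean of at least 1 FPKM left Axin2 and Znrf3 out, so that 0 of the genes were called lower. The log2 fold change of Axin2 ranged from -0.72 to -0.59 without 1 library. Directions turned for Oat without Flox replicate 1 (0.022, adjusted p = 0.96; -0.772 to 0.022 over the libraries left out) and for Znrf3 after median-ratio rescaling (0.035), after rescaling to a common sum (0.015), without Flox replicate 2 (0.023) and without HepKO replicate 2 (0.042), with -0.055 the lowest without 1 library. Neither gene passed in any fit. The 2583 calls over all genes ranged from 1306 without HepKO replicate 2 to 2282 without HepKO replicate 3, with 1322 without Flox replicate 2, 1480 without Flox replicate 3 and 1661 without HepKO replicate 1. Of these calls 1186 were higher and 1397 lower, and after median-ratio rescaling 1501 were higher and 1034 lower. Same-numbered libraries did not deviate together (r of 0.003, 0.002 and -0.025). Those values give no sign of pairing by number, but they cannot show that the livers were unpaired. With the replicate block the count was 1551, and Glul (adjusted p = 0.027) and Axin2 (0.042) still passed. Counts of list genes under the alternatives were added after seeing the data. Lgr5, Wnt2 and Wnt9b did not pass when the filter was dropped, and their depth is unknown.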
